A study of Homo sapiens with 9 samples.

Results

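Chemokines are small secreted proteins that guide migrating cells along a gradient. CXCL8, also called interleukin 8, and its close relatives CXCL1, CXCL2, CXCL3, CXCL5 and CXCL6 attract neutrophils by binding the receptor CXCR2, and CXCL8 and CXCL6 also bind CXCR1. Their genes are known as fast-induced targets of NF-kB and AP-1 in inflamed tissue, and tumour cells of many kinds secrete CXCL8. The 10 genes described here are these 6 together with CXCL12, CCL2, CCL20 and CX3CL1. CXCL12 is the ligand of CXCR4 and CCL20 that of CCR6. CCL2 is a monocyte attractant that binds CCR2, and CX3CL1 a membrane-anchored chemokine that binds CX3CR1. They were taken from a list of symbols chosen with earlier results of these data known, and are 10 of 19775 genes on the array. A probe set, the group of short probes that measures a transcript on an Affymetrix array, was used where its annotation named a single gene, which gave 17 probe sets for the 10 genes.

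All 9 samples were HT1080 cells, an established human fibrosarcoma line, seeded on thick gels of bovine dermal collagen prepared at 1.7 mg/ml and left for 24 h before treatment. A cocktail of protease inhibitors was then present for 4 h (the PI 4 h group) or 24 h (PI 24 h), and absent in the untreated group. The cocktail held 100 µM GM6001 (a metalloproteinase inhibitor), 250 µM E64 (cysteine proteases), 50 µM pepstatin A (aspartic proteases) and 2 µM each of leupeptin and aprotinin (serine proteases, and for leupeptin cysteine proteases too). Each group had 3 arrays, which the submitters call biological replicates. The titles of the untreated samples mention a vehicle, and neither its identity nor the harvest time of those cells is known here. The same untreated group served for both durations, so an effect of the cocktail cannot be told apart from one of time in culture. The series' design text calls the mix a kinase inhibitor cocktail, while the protocol lists protease inhibitors, and the protocol was followed.

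Values are intensities on a linear scale, with no call of presence or absence, and the median probe set of an array lay between 14.2 and 18.2. The mesenchymal marker VIM measured 8526 to 11713 over the 9 arrays. It was the brightest of 12 listed, which together summed to 18605.8 to 21570.6 in PI 4 h, 19264.9 to 20742.7 in PI 24 h and 16754.7 to 19384.2 in untreated cells. COL1A1, COL1A2, COL5A1, THY1 and PDGFRB were dim, at 67.6 or less on every array. Of 12 such markers 1, COL3A1, was called, higher in PI 24 h near background (19.8 ± 9.0 in PI 24 h and 2.1 ± 0.6 in untreated cells, limma adjusted p = 0.0487; called in 3 of 17 alternatives, with an adjusted p up to 0.376, and lost without any 1 array other than PI 4 h replicate 2). The 8 measured leukocyte markers together summed to 59.7 to 112.4 in PI 4 h, 80.6 to 97.4 in PI 24 h and 45.5 to 95.9 in untreated cells, and 5 of the 8 never exceeded 18.2. Those with the smallest p were PTPRC at 4 h and CD79A at 24 h (limma adjusted p = 0.545 and 0.505). The 6 endothelial markers summed to 80.1 to 128 in PI 4 h and 88.3 to 134 in PI 24 h, against 49.8 to 62.4 in untreated cells, none of them past the test and none above 55 on any array. The smallest p was that of CDH5 at 4 h and PECAM1 at 24 h (limma adjusted p = 0.195 and 0.133). The 8 epithelial markers summed to 4465.7 to 5296.9 in PI 4 h, 3991.7 to 4488 in PI 24 h and 4154.4 to 4673.2 in untreated cells, carried by KRT18 and KRT8, with EPCAM at 10.4 or less. EPCAM had the smallest p at 4 h and KRT8 at 24 h (limma adjusted p = 0.564 and 0.0715). No marker of these 3 other cell types was at exactly 0, and their part in the results below was not tested. The poly-A spike transcripts, bacterial RNAs added to each RNA sample, were brighter by 0.88 on the log2 scale in PI 4 h and by 1.31 in PI 24 h than in untreated cells (exact two-sided permutation p = 0.1 for each, the lowest possible p with 3 arrays per group). RNA integrity was read from ACTB, whose 5' probe set divided by its 3' probe set gave 0.682, 0.871 and 0.615 in PI 4 h and 0.654 to 0.727 in PI 24 h, against 0.855 to 0.922 in untreated cells (exact permutation p = 0.2 and 0.1). Replicate 2 of PI 4 h lay within the untreated range of this ratio, and the CXCL8 calls are also given without it. That leaves PI 4 h arrays at 0.682 and 0.615, so it does not test a part of RNA integrity.

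The promoters of the neutrophil-attracting members are shown first, because these 6 genes lie on chromosome 4, in the order CXCL8, CXCL6, CXCL1, CXCL5, CXCL3 and CXCL2, and share a sequence element while their array signals differed. RefSeq's promoter table (GRCh38.p14, 250 bases before to 50 after the annotated start) held 8 of the 10 members; CCL2 and CX3CL1 were not matched. In the CXCL8 promoter, chr4:73740319-73740618 on the plus strand, capitals mark a match to the AP-1 motif TGANTCA and a match to GGAATTTCC, a form of the NF-kB binding motif.
CXCL8: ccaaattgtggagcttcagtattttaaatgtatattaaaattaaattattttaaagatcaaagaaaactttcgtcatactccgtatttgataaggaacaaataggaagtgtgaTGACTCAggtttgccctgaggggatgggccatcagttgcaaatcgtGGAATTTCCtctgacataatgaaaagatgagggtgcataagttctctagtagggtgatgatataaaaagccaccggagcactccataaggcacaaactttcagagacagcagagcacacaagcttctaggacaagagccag

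The other 5 neutrophil-attracting members carried the same 9 letters at nearly the same place, which the 40-base windows below show with GGAATTTCC in capitals.
CXCL1: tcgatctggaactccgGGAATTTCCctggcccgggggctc
CXCL2: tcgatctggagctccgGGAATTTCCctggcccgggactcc
CXCL3: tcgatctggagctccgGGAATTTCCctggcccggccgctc
CXCL5: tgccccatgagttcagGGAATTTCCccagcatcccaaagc
CXCL6: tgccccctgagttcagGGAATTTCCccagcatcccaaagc
The windows are chr4:73869299-73869338 (plus strand) for CXCL1, chr4:74099249-74099288 (minus) for CXCL2, chr4:74038744-74038783 (minus) for CXCL3, chr4:73998744-73998783 (minus) for CXCL5 and chr4:73836573-73836612 (plus) for CXCL6.

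GGAATTTCC, searched on both strands, was found in 6 of the 8 promoters and in 0.461% of all 35116 promoters of this length. It began 91 bases before the annotated start in CXCL8, 90 and 89 bases before it in CXCL5 and CXCL6, 78 bases before it in CXCL1 and CXCL3, and 77 bases before it in CXCL2. The same letters with 1 further G at the front, a longer form that contains the shorter one, were present in the 5 relatives and not in CXCL8 (0.145% of all promoters). TGANTCA, which reads the same on both strands, was found in CXCL8 alone of the 8, beginning 137 bases before the start, and in 7.71% of all promoters. CXCL8 was 1 of 17 promoters, 0.0484% of the table, with both GGAATTTCC and TGANTCA. None of these letters was found in the windows of CXCL12 and CCL20. A match is a string of letters and was not tested as a binding site.

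CXCL8 transcript rose 4.77-fold after 4 h of protease inhibition, the largest rise of all genes, and its arrays overlapped untreated at 24 h. None of the other 9 chemokine genes passed the test, an adjusted p under 0.05, in any comparison, and their 15 probe sets measured between 0.1 and 46.5 on all 9 arrays. Of these sets 8 never exceeded 18.2, the highest array median. The brighter CXCL8 probe set was 202859_x_at, whose suffix marks probes that may also match other transcripts. It measured 695.2, 612.5 and 664.6 in PI 4 h and 121.5, 94.2 and 101.5 in PI 24 h, against 148.9, 103.6 and 126.2 in untreated cells. The PI 4 h arrays lay far above all others, and the PI 24 h and untreated arrays overlapped. The second CXCL8 probe set, 211506_s_at, measured 282.1, 197.1 and 281.9 in PI 4 h and 48.1, 42.9 and 56.5 in PI 24 h, against 50.2, 65.1 and 57.5 in untreated cells, in the same order of groups.

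**Figure D1:**
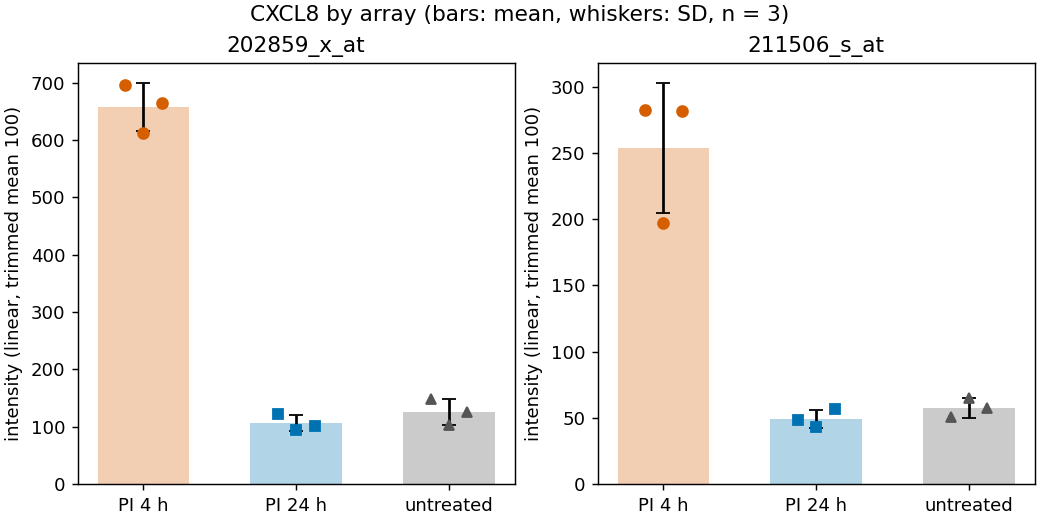
Linear intensity (vertical axis, from 0) of the 2 CXCL8 probe sets on each of the 9 arrays, grouped as PI 4 h, PI 24 h and untreated; points are arrays, bars means and whiskers SD (n = 3). In both panels the 3 PI 4 h arrays stand above every other array, and PI 24 h overlaps untreated.

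After 4 h, CXCL8 averaged 657 ± 42 in PI 4 h and 126 ± 23 in untreated cells (SD, n = 3 each), a ratio of means of 5.21. On the scale used for testing, log2(intensity + 16), which understates changes of dim genes, the change was 2.25 ± 0.15 (SE; limma adjusted p = 0.00105 over 19775 genes), or 4.77-fold with a 95% interval of 3.79 to 6.01. The second probe set gave 3.63-fold when all 54613 probe sets were tested (limma adjusted p = 0.0136). The CXCL8 change exceeded that of the spike transcripts, taken on log2 intensity without the added 16, by 1.37. Without replicate 2 of PI 4 h it was 2.30 (limma adjusted p = 0.00683). In a bulk sample, a change in the amount of a transcript per cell and a change in the share of cells that make it cannot be told apart.

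CXCL8 was thus the 1 of 10 members called higher at 4 h, and 0 of 10 were called lower, where 0.233% of all genes were called higher and 0.0152% lower. The median change of the 10 members was 0.05 on the log2 scale, against 0.01 over all genes. At the brightest probe set, the arrays of the groups did not overlap for 3 of the 10 members, against 17.5% of all genes. These were CXCL8, CXCL2 and CXCL3, all higher in PI 4 h. At an unadjusted p under 0.05 the same 3 genes passed.

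At the brightest probe set of each gene, CXCL3 and CXCL2, ligands of CXCR2, were the other members with every PI 4 h array above every untreated array. CXCL3 (207850_at) measured 33.9, 25.6 and 46.5 in PI 4 h and 15.9, 19.1 and 7.4 in PI 24 h, against 24.4, 17.6 and 10.7 in untreated cells. Its order of group means was that of CXCL8. The difference was 0.61 ± 0.22 (SE) on the log2 scale for PI 4 h minus untreated (limma adjusted p = 0.297) and -0.77 ± 0.22 for PI 24 h minus PI 4 h (limma adjusted p = 0.221). CXCL2 (230101_at) measured 19.2, 17.9 and 19.1 in PI 4 h and 16.3, 16 and 7.4 in PI 24 h, against 3.7, 17.0 and 2.9 in untreated cells. Untreated replicate 2 was close to the PI 4 h arrays, and the difference of 0.59 ± 0.22 (SE) did not pass (limma adjusted p = 0.320). The other 2 probe sets of CXCL2 stayed at 16.1 or less on every array, and their groups overlapped. The 4 h changes of CXCL2 and CXCL3 were smaller than that of the spike transcripts by 0.29 and 0.27 on the log2 scale. However, 16 was added to the gene values and not to the spike values. With 1 added in place of 16, the changes were 1.51 and 0.999, against 0.88 for the spike transcripts. Neither gene passed there (limma adjusted p = 0.414 and 0.459).

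CXCL1, another CXCR2 ligand, had its lowest mean in PI 4 h and its highest in PI 24 h. Its probe set 204470_at measured 0.9, 4.2 and 9.6 in PI 4 h and 32.1, 17.0 and 18.0 in PI 24 h, against 13.9, 8.4 and 12.9 in untreated cells. The PI 24 h arrays lay above all 6 others, and the PI 4 h and untreated arrays overlapped. The difference for PI 24 h minus PI 4 h was 0.88 ± 0.20 (SE) on the log2 scale with an unadjusted p of 0.00135 in limma, and it did not pass over all genes (limma adjusted p = 0.129).

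CXCL5 and CXCL6, which also signal through CXCR2, measured at most 13.7 over 3 probe sets and 11.4 on 1 probe set. CXCL6 read 0.4, 10.8 and 2.9 in PI 4 h and 0.5, 0.6 and 0.4 in PI 24 h, against 11.4, 2.6 and 0.1 in untreated cells, so the spread within a group was as wide as any difference. At the brightest probe set of each gene no change exceeded 0.30 in size on the log2 scale, and the limma adjusted p lay between 0.587 and 0.996. Of the other CXCL5 probe sets, 215101_s_at differed by 0.41 for PI 24 h minus untreated and by 0.37 for PI 24 h minus PI 4 h, with overlapping arrays (limma adjusted p = 0.425 and 0.624 over all probe sets). For CXCL6 at 4 h the 95% interval of the change ran from -0.50 to 0.51, and for CXCL5 from -0.60 to 0.34. A test that was not passed does not show that these genes were unaffected.

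**Figure D2:**
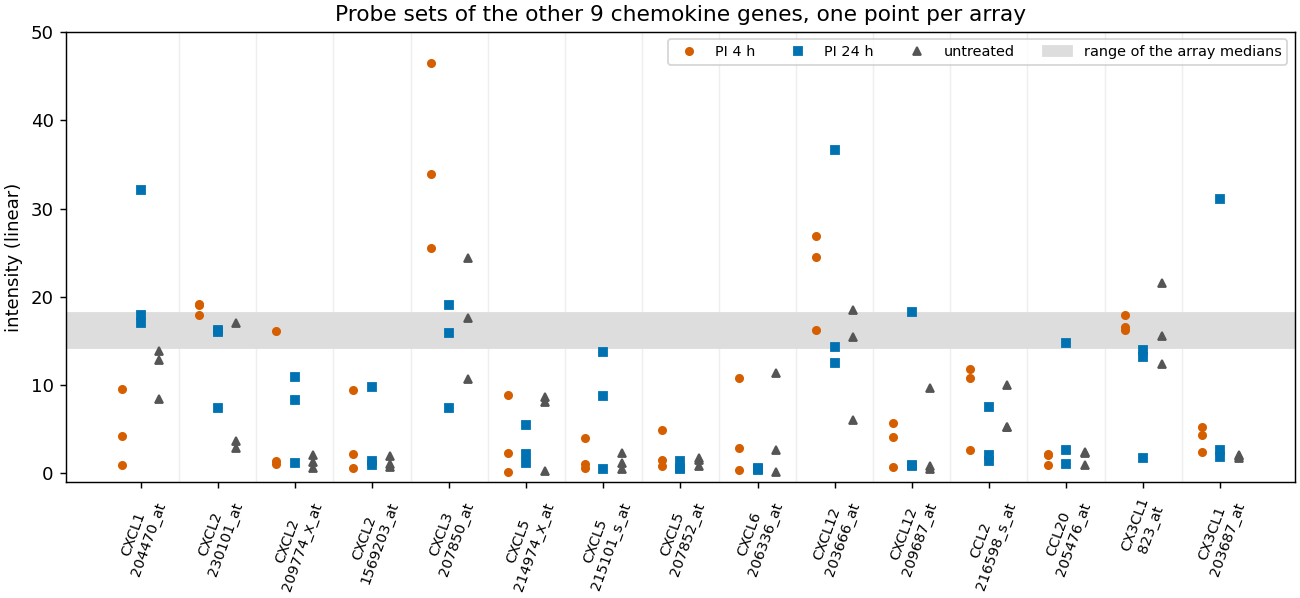
Linear intensity of the 15 probe sets of the other 9 chemokine genes, with 1 point per array for PI 4 h, PI 24 h and untreated from left to right within each probe set; the grey band is the range of the array medians, 14.2 to 18.2. The highest value is 46.5, for CXCL3 in PI 4 h, and 8 of the 15 probe sets never lie above the band.

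CXCL12, a ligand known from stromal fibroblasts, measured 26.9, 24.5 and 16.3 in PI 4 h and 36.6, 14.3 and 12.5 in PI 24 h, against 15.4, 18.5 and 6.0 in untreated cells at 203666_at. Its groups overlapped. The changes from untreated were 0.41 ± 0.26 (SE) at 4 h and 0.31 ± 0.26 at 24 h on the log2 scale (limma adjusted p = 0.573 and 0.618). At the other CXCL12 probe set, 209687_at, no array exceeded 18.3 and the groups overlapped. Its log2 changes from untreated were 0.01 at 4 h and 0.15 at 24 h. The monocyte attractant CCL2 measured 1.4 to 11.8 over the 9 arrays. CCL20, which attracts CCR6-bearing lymphocytes and dendritic cells, measured 1.0 to 14.8, with 14.8 on PI 24 h replicate 3 and at most 2.6 on the other arrays. Neither gene passed in any comparison (limma adjusted p between 0.588 and 0.993).

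CX3CL1, which the proteases ADAM10 and ADAM17 release from the cell surface, measured 18.0, 16.3 and 16.6 in PI 4 h and 13.2, 14.0 and 1.7 in PI 24 h, against 21.6, 12.4 and 15.6 in untreated cells at 823_at. PI 4 h and untreated arrays overlapped. The PI 24 h arrays lay below the PI 4 h arrays without passing the test (log2 difference -0.40 ± 0.20 SE, limma adjusted p = 0.502). Its other probe set, 203687_at, measured 2.4, 5.3 and 4.3 in PI 4 h and 31.1, 2.6 and 1.8 in PI 24 h, against 2.0, 1.7 and 2.1 in untreated cells. Its PI 4 h arrays lay above untreated at this low level (limma adjusted p = 0.918 over all probe sets), and a single PI 24 h array was high. Its sign was opposite to that of 823_at for PI 24 h minus untreated (0.48 against -0.37 on the log2 scale).

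After 24 h, no member was called against untreated in limma, in either direction, where 0.217% of all genes were called higher and 0.248% lower. CXCL8 averaged 106 ± 14 in PI 24 h and 126 ± 23 in untreated cells (SD, n = 3 each), a log2 change of -0.22 ± 0.15 (SE; limma adjusted p = 0.530). The 95% interval of its fold change, 0.68 to 1.08, includes no change. Minus the change of the spike transcripts at 24 h, the CXCL8 log2 change was -1.53. The 2 comparisons with untreated share the untreated arrays. At an unadjusted p under 0.05, 1 member, CXCL1, passed. It was also the 1 of 10 whose arrays did not overlap (22.4 ± 8.4 in PI 24 h and 11.7 ± 2.9 in untreated cells). Over all genes 25% did not overlap. The median change of the members was -0.17 on the log2 scale, against 0.01 over all genes.

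The later profile was compared with the earlier one directly. CXCL8 fell to 106 ± 14 in PI 24 h, against 657 ± 42 in PI 4 h (SD, n = 3 each), a log2 change of -2.47 ± 0.15 (SE; limma adjusted p = 0.000446). This was 5.55-fold lower and the largest fall of all 19775 genes in this comparison. The second probe set had a log2 change of -2.04 (limma adjusted p = 0.00613 over all probe sets). Without replicate 2 of PI 4 h the fall of the brighter set was -2.52 (limma adjusted p = 0.00607). CXCL8 was the 1 of 10 members called lower and 0 were called higher, beside 0.116% and 0.0253% of all genes. The arrays did not overlap for 5 members, against 15.2% of all genes. CXCL1 was higher in PI 24 h, and CXCL8, CXCL2, CXCL3 and CX3CL1 were lower. The comparisons of PI 4 h with untreated and of PI 24 h with PI 4 h share the PI 4 h arrays, so the rise and the fall of CXCL8 are not independent measurements.

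**Figure D3:**
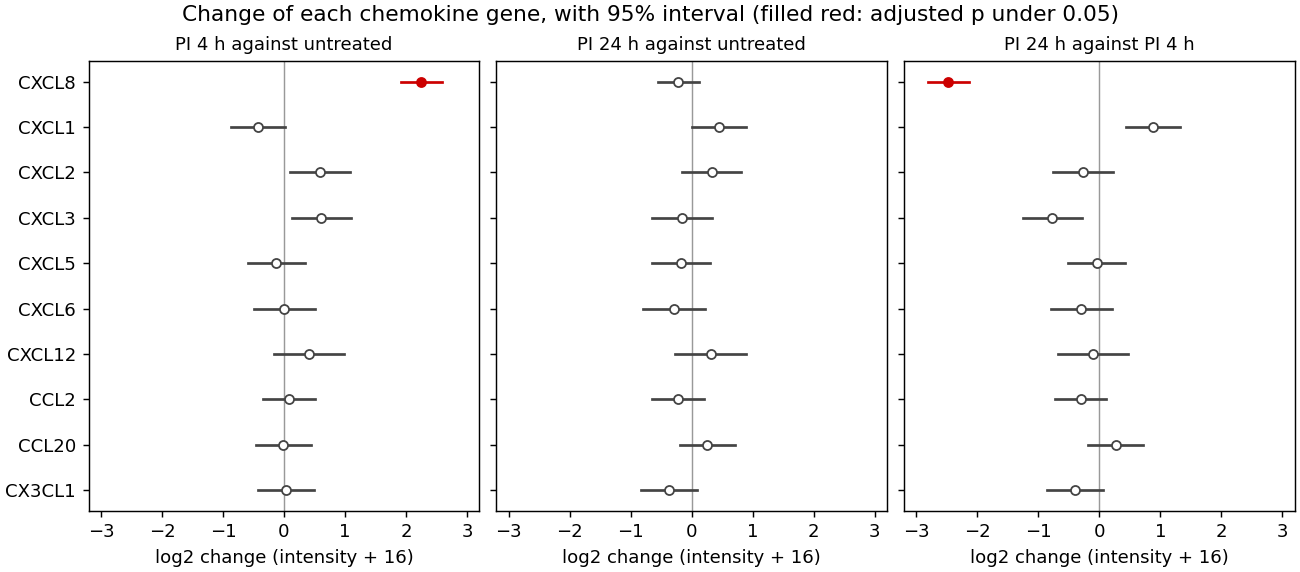
Log2 change (horizontal axis, log2 of intensity + 16) of each of the 10 chemokine genes in the 3 comparisons, with its 95% interval from limma; filled red points have an adjusted p under 0.05. CXCL8 is the single filled gene, at 2.25 for PI 4 h against untreated and -2.47 for PI 24 h against PI 4 h, and its interval includes 0 for PI 24 h against untreated.

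No other chemokine ligand, receptor or chemokine-cleaving protease passed the test. Of 34 other chemokine ligands 29 were measured, and none passed in any comparison. The median change was -0.01 at 4 h and 0.02 at 24 h on the log2 scale. The ligand with the smallest p was CXCL16, a membrane-bound chemokine that binds CXCR6. It measured 3.8 ± 1.5 in PI 4 h and 6.2 ± 1.9 in PI 24 h, against 15.9 ± 4.7 in untreated cells (limma adjusted p = 0.0986 and 0.120). Of 23 receptors 21 were measured and none passed. CCR1, a receptor for several CC chemokines, had the smallest p at 12.3 ± 8.4 in PI 4 h and 13.4 ± 4.3 in PI 24 h, against 35.9 ± 2.5 in untreated cells (limma adjusted p = 0.144 and 0.117). Its other probe set overlapped between all groups. Of 14 proteases known to cleave or release chemokines, none passed. MMP2, which clips CCL7 and CXCL12, had the smallest p (300 ± 93 in PI 4 h and 234 ± 44 in PI 24 h, against 516 ± 27 in untreated cells; limma adjusted p = 0.181 and 0.0551).

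Regulators known to act on chemokine genes were read from 4 further lists, also chosen with earlier results of these data known. Of 15 measured NF-kB factors and inhibitors, 3 rose and none fell at 4 h, where 0.233% of all genes were called higher and 0.0152% lower. The median change of the 15 was 0.25 on the log2 scale, against 0.01 over all genes. They were NFKBIA and NFKBIE, which hold NF-kB in the cytoplasm, and TNFAIP3, an enzyme that limits signalling to NF-kB. NFKBIA measured 1375 ± 131 in PI 4 h and 571 ± 46 in untreated cells (2.37-fold, limma adjusted p = 0.00776). This call held in 13 of 18 alternatives and was lost without untreated replicate 2 or 3 or PI 4 h replicate 1 (adjusted p up to 0.0740). The other NFKBIA probe set was dim, at 20.2 or less. It was 1.37-fold higher at 4 h with overlapping arrays, and 1.71-fold higher at 24 h without overlap (limma adjusted p = 0.428 and 0.129 over all probe sets). For PI 24 h minus PI 4 h its log2 change was 0.32, against -0.52 at the brighter set. NFKBIE measured 208 ± 24 in PI 4 h and 160 ± 4 in PI 24 h, against 109 ± 5 in untreated cells (limma adjusted p = 0.0369 and 0.0893). Its 4 h call held in 4 of 18 alternatives and was lost without any 1 of the 9 arrays (adjusted p up to 0.182 over all alternatives). NFKBIA was also called higher at 24 h, at 954 ± 22 in PI 24 h and 571 ± 46 in untreated cells (limma adjusted p = 0.0451). This later call held in 7 of 18 alternatives and was lost without any 1 of the untreated or PI 24 h arrays or PI 4 h replicate 1 (adjusted p up to 0.186). Minus the change of the spike transcripts, the 4 h log2 changes were 0.36 for NFKBIA, -0.05 for NFKBIE and 0.28 for TNFAIP3. For NFKBIA at 24 h it was -0.59. The gene values here carry the added constant of the testing scale, and the spike values do not. Without that constant, the 4 h ratios of means were 2.41 for NFKBIA, 1.91 for NFKBIE and 2.45 for TNFAIP3. The spike transcripts were 1.85-fold brighter at 4 h, so the sign for NFKBIE depended on the scale. At 24 h the ratio for NFKBIA was 1.67, against 2.49-fold for the spike transcripts. Whether the spike difference bears on these calls was not tested.

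The brighter probe set of TNFAIP3 had the order of group means of CXCL8. It measured 224.4, 236.5 and 225.0 in PI 4 h and 90.6, 78.2 and 95.1 in PI 24 h, against 85.8, 104.2 and 89.6 in untreated cells. The PI 4 h arrays stood alone and the other groups overlapped. The log2 changes were 1.17 ± 0.12 (SE; limma adjusted p = 0.00938) for PI 4 h against untreated and -1.24 ± 0.12 (limma adjusted p = 0.00652) for PI 24 h against PI 4 h. The rise held in 12 of 18 alternatives and was lost without untreated replicate 3, PI 4 h replicate 1 or PI 4 h replicate 3 (adjusted p up to 0.0779 over all alternatives). The fall held in 16 of 18 (adjusted p up to 0.0765). The other TNFAIP3 probe set averaged 112 ± 15 in PI 4 h and 51.4 ± 7.8 in PI 24 h, against 45.1 ± 6.8 in untreated cells. Its PI 24 h mean thus lay above untreated, with overlapping arrays, and it did not pass over all probe sets (limma adjusted p = 0.0802 at 4 h and 0.111 for PI 24 h against PI 4 h).

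Of 11 AP-1, C/EBP and EGR factors, EGR1, an immediate-early transcription factor, rose at 4 h (177 ± 11 in PI 4 h and 47.0 ± 8.4 in untreated cells, limma adjusted p = 0.004) and 10 did not pass. This call held in all 18 alternatives (adjusted p up to 0.0466), and its other 2 probe sets had log2 changes of 1.04 and 0.26. EGR1 was lower at 24 h than at 4 h (81.3 ± 8.0 in PI 24 h and 177 ± 11 in PI 4 h, limma adjusted p = 0.0298), which held in 4 of 18 and was lost without any 1 array other than untreated replicate 1 (adjusted p up to 0.139). None of 7 measured factors that control mRNA decay or stability passed. ZFP36L2, which promotes decay of AU-rich mRNAs, came closest (227 ± 13 in PI 4 h and 218 ± 34 in PI 24 h, against 129 ± 1 in untreated cells; limma adjusted p = 0.0625 and 0.0551), while its other 3 probe sets had log2 changes of -0.27 to -0.01 at 4 h. Of 18 measured inducing cytokines and receptors none passed at 4 h. IL1B, interleukin 1 beta, a strong inducer of CXCL8, measured 2005.9, 1604.3 and 2009.2 in PI 4 h and 913.0, 954.4 and 942.4 in PI 24 h, against 1609.6, 1759.0 and 1818.5 in untreated cells. A part of IL1B in the CXCL8 change was not tested. The PI 4 h arrays of IL1B overlapped untreated, and its PI 24 h arrays lay below both other groups. The log2 changes were -0.87 ± 0.13 (SE) against untreated and -0.98 ± 0.13 against PI 4 h (limma adjusted p = 0.0333 and 0.0262). Its second probe set had the same signs. The falls held in 9 and 6 of 18 alternatives (adjusted p up to 0.171 and 0.128). The fall against untreated was lost without any 1 of the untreated or PI 24 h arrays, and that against PI 4 h without any 1 of the PI 24 h arrays, untreated replicate 2 or 3, or PI 4 h replicate 1 or 3.

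The same motif search was made in the promoters of the called regulators and of CCN2, where the table held them. NFKBIA carried the longer NF-kB form, and TNFAIP3, EGR1, IL1B and CCN2 carried neither NF-kB form nor TGANTCA in their 300 bases, which says only that these letters are not in this window.

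The genes closest to CXCL8 in their pattern were found by the root mean square difference between log2 values, each centred on the gene's own mean, over the 9 arrays. Since they were chosen for this pattern, their values are a description with no test. The nearest was CCN2, connective tissue growth factor, at 0.42. It was followed by TNFAIP3 at 0.58, GPR84, a receptor for medium-chain fatty acids, at 0.59, SMPDL3B, a membrane phosphodiesterase, at 0.60 and EGR1 at 0.62. The median over all genes was 1.15. CCN2 measured 1208.1, 1352.3 and 860.9 in PI 4 h and 220.6, 284.1 and 262.8 in PI 24 h, against 339.3, 387.9 and 422.9 in untreated cells. Its PI 24 h arrays lay below untreated without overlap. GPR84 and SMPDL3B were dim, at 60.9 ± 8.7 and 36.2 ± 9.3 in PI 4 h, 14.2 ± 5.4 and 3.6 ± 1.0 in PI 24 h and 22.2 ± 2.8 and 10.4 ± 8.7 in untreated cells. The second probe set of SMPDL3B stayed at 11.6 or less.

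**Figure D4:**
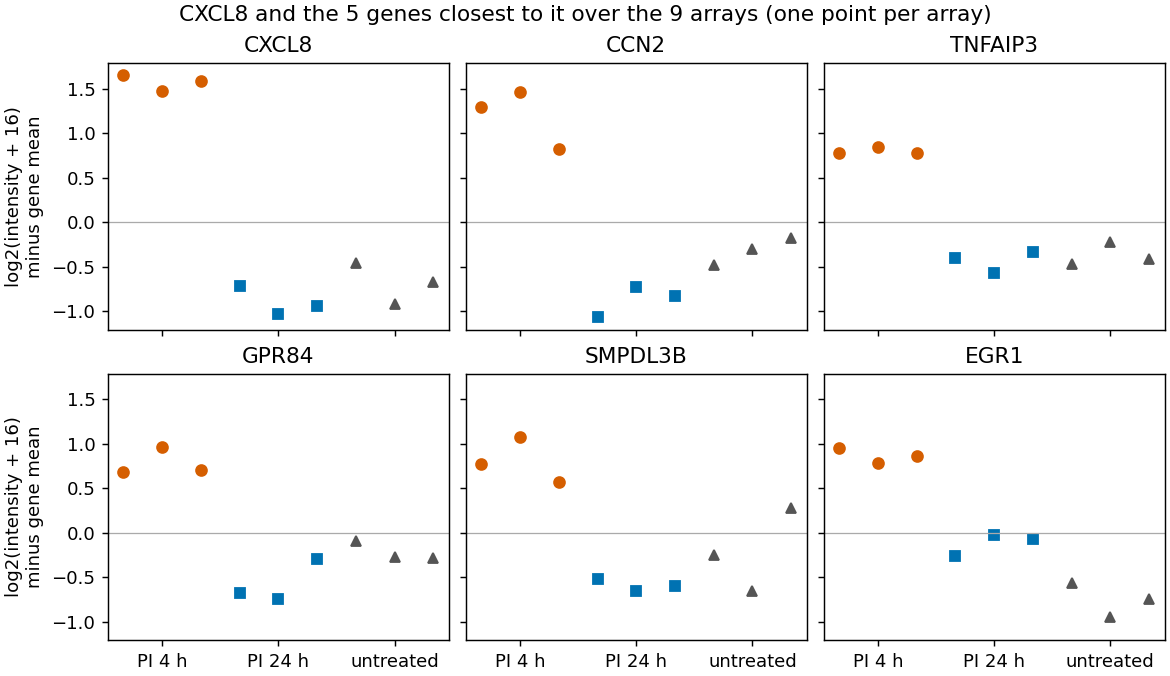
Log2(intensity + 16) minus the gene's mean over the 9 arrays (vertical axis) for CXCL8 and the 5 genes closest to it, with 1 point per array for PI 4 h, PI 24 h and untreated. In every panel the PI 4 h arrays are the highest, and in EGR1 the PI 24 h arrays lie between the other groups.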

How the data were processed

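Gene expression was measured on 9 one-colour Affymetrix arrays, 3 per group, and groups were taken from the sample titles. The deposited table holds linear intensities, with a trimmed mean (2% cut from either end) of 100 for each array, so a change in total messenger RNA cannot be read from them. R 2.9.2 and RMA are listed, per the submitters' processing notes, with no role stated, and how these values were summarised is unknown here. Values were transformed as log2(intensity + 16) from the deposited intensities.

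Of 54675 probe sets, 62 controls were left out, 41091 named 1 gene (41037 matched to RefSeq symbols), 1801 named several and 11721 were not listed. Each gene was represented by its probe set with the highest mean log2 value. No filter was applied, so all 10 members were tested. limma 3.58.1 (R 4.3.3) was run on the 9 arrays together with group means as coefficients, and p-values were adjusted by Benjamini-Hochberg over 19775 genes, with a threshold of 0.05. Where the text says a call held in some of 18 alternatives, those are the settings below. All tests were two-sided, and the fit was tested on simulated data. The 12 gene lists, of which the members are 1, were chosen with earlier results of these data known. All members are named. Of the other lists, genes past the threshold are named, or else the gene with the smallest p in each comparison with untreated. The 5 genes nearest to CXCL8 are named too. Alternatives covered the pseudocount, a filter, scaling, pairing, the probe-set rule, the arrays fitted and leaving out each array. The number of arrays limits the precision.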

Additional observations from a re-analysis of the deposited data

Results flagged for a closer look

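Effects at 4 h and 24 h differed by the direct limma test of PI 24 h against PI 4 h for CXCL8, TNFAIP3, EGR1 and IL1B, at the brightest probe set of each. The calls of TNFAIP3, EGR1 and IL1B held in 16, 4 and 6 of 18 alternatives. The change of CXCL8 from untreated at 24 h minus that at 4 h was -2.47 on the log2 scale, that of TNFAIP3 -1.24, that of EGR1 -0.99 and that of IL1B -0.98. TNFAIP3 and EGR1 were also among the genes nearest to CXCL8. CCN2 and GPR84, with -2.07 and -1.36, were chosen for a pattern like that of CXCL8, which fixes their direction, so their values are a description only. For IL1B the difference came with a fall below untreated at 24 h, whereas CXCL8 was high at 4 h and overlapped untreated at 24 h. In the control probe sets, which enter no gene comparison, the poly-A spike transcripts were brighter than in untreated cells by 0.88 in PI 4 h and by 1.31 in PI 24 h on the log2 scale, while the hybridization controls, added at a later step, differed by 0.13 and 0.15. Groups of 3 arrays are too small for the outlier test, so no single array was flagged.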

How the results depend on the processing

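CXCL8 was the only member called under all 18 alternatives at 4 h and for 24 h against 4 h, and no member was called at 24 h against untreated under any. Its change ranged from 1.93 to 2.39 at 4 h (limma adjusted p up to 0.0277), from -0.34 to -0.11 at 24 h (lowest adjusted p = 0.373) and from -2.63 to -2.09 for 24 h against 4 h (adjusted p up to 0.0136). Without 1 array the ranges were 2.13 to 2.37, -0.34 to -0.11 and -2.56 to -2.40. Of the 27 results of the other members none gained a call among their 465 values under the 18 alternatives (lowest limma adjusted p = 0.111). Of these results 11 changed sign in at least 1 alternative. The filter at the 40th percentile removed 7 members.

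Counts of all called genes, and so the background shares, did depend on the setting. They were 49 (PI 4 h against untreated), 92 (PI 24 h against untreated) and 28 (PI 24 h against PI 4 h) as reported. In that order they were 6, 1 and 9 with a pseudocount of 1, 273, 826 and 251 with 64, and 177, 577 and 125 with the filter. They were 2, 200 and 1 with the compared groups alone. With all 54613 probe sets tested singly, the calls were 7, 29 and 14 probe sets, which are not counts of genes. The mean of all probe sets gave 26 and 49 in the comparisons with untreated. Median centring gave 17 at 4 h and 15 for 24 h against 4 h, and at 24 h it split the calls into 22 higher and 54 lower, against 43 and 49 as reported. Without 1 array the counts were 3 to 15, 0 to 256 and 6 to 18. Every array left out moved the first and the last by over 1.5 times, and every one but PI 4 h replicate 3 moved the second, with 0 calls in limma without PI 24 h replicate 1 or 2 (2778 and 2671 genes at an unadjusted p under 0.05) and 256 without PI 4 h replicate 2. With the replicate number as a block the counts were 3, 1 and 3, and CXCL8 kept both calls. Same-numbered arrays did not deviate together (correlations -0.11 to 0.09 over 9 pairs), so the numbers were not taken as pairs. The cause of these differences was not tested. No detection calls were used, so signals near the array median could not be told from background.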
